A study of Mus musculus with 5 samples.

Results

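The regions described here are the ATRX peaks of control neurons that were met again in every other library of the study. They were chosen by position: a peak of the mCherry list at day 14 in vitro (DIV14) on chromosomes 1 to 19 was a member when at least 1 bp of it was covered by a peak in each of the 3 other lists, with no threshold beyond the authors' own. This left 1614 of 96230 control peaks (1.68%), out of 638743 peaks in the 4 lists together. A listed start of a protein-coding gene lay within 1 kb of the summit for 41.2% of members, against 7.89% of other control peaks, and promoters under members held more CpG than those under other control peaks. Members included peaks at activity-response genes such as Egr1 and Dusp6, at the dendritic microtubule gene Map2 and in Cacng4, a gene of an auxiliary AMPA receptor subunit.

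The study mapped ATRX by ChIP-seq, which sequences the DNA fragments pulled down with an antibody, in primary neurons of C57BL6/J mouse embryos (E15.5-17.5) that were given lentivirus on day 5 in vitro. Of the 4 ChIP libraries, 1 carried TBC1D3, a hominoid gene that mice lack, at DIV14, and 1 carried a construct labelled MICAL1-M1 at DIV14, MICAL1 being an actin-oxidising enzyme. The control carried the fluorescent protein mCherry at DIV14, and a second mCherry culture, called young in the series design, was taken at day 7 (DIV7). Each group is 1 library with no replicates, and intervals are exact binomial ones at 95% that cover counting error only. All 4 cultures were infected, the promoters of the constructs are not stated in the labels, and peak lists cannot show how many cells in a culture were neurons. The peaks of the list filed under MICAL1-M1 carry names that begin with M2, so its identity rests on the label.

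ATRX is a SNF2-family chromatin remodeller that, with the histone chaperone DAXX, deposits histone H3.3 at telomeres, pericentric heterochromatin and other repeats, and it has also been mapped to G-rich and CpG-rich sequence. Inherited loss of its function causes the ATR-X syndrome, an intellectual disability with alpha-thalassaemia. A peak in a list is a place where the authors' caller found more immunoprecipitated fragments than its local background, and the summit is the position where most fragments overlap.

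Promoters are shown first because they carry the most frequent position of the members. Among members with a control summit at a gene end, these 6 are from those of highest rank in their weakest list, in descending order, and each overlaps its gene's promoter. Each sequence runs 5′ to 3′ on the gene's strand from 250 bp before to 50 bp after the start of transcription in RefSeq (GRCm38.p6), and capitals mark CpG dinucleotides. Tril (chr6:53820776-53821075, minus strand) encodes a Toll-like receptor cofactor, Dusp6 (chr10:99262981-99263280, plus strand) a phosphatase of the ERK kinases, and Adamts1 (chr16:85803064-85803363, minus strand) a secreted metalloprotease. Ets2 (chr16:95702157-95702456, plus strand) encodes a transcription factor, Irs1 (chr1:82291390-82291689, minus strand) the insulin receptor substrate, and Map2 (chr1:66175079-66175378, plus strand) a protein of dendritic microtubules.
Tril: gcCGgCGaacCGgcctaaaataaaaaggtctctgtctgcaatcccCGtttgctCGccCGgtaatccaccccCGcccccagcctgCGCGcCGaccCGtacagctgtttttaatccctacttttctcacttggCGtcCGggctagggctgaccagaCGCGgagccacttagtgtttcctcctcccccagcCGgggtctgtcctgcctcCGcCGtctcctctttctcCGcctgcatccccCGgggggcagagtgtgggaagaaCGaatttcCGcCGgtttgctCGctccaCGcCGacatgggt
Dusp6: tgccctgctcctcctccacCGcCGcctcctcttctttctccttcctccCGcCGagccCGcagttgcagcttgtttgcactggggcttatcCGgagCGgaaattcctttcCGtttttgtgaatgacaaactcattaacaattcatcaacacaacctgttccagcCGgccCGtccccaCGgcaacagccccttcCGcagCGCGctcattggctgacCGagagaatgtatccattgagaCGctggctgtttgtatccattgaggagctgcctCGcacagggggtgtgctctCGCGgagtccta
Adamts1: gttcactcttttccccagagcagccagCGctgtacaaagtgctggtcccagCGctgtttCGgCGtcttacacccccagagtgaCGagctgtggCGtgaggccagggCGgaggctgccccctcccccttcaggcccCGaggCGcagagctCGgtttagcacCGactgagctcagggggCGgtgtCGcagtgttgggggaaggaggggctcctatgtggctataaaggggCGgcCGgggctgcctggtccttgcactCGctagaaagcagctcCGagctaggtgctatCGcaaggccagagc
Ets2: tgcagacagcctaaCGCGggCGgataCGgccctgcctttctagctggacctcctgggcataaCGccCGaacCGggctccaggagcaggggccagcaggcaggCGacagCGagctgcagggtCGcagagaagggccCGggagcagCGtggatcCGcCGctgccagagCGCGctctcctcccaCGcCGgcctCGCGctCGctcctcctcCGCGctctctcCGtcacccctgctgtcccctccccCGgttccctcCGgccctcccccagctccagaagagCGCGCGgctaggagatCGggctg
Irs1: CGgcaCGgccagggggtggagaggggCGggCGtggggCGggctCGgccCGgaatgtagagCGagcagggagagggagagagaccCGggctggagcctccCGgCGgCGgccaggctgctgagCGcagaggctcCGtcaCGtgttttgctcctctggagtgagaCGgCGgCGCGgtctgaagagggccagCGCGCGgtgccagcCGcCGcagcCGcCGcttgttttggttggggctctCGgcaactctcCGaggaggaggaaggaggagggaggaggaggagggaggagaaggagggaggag
Map2: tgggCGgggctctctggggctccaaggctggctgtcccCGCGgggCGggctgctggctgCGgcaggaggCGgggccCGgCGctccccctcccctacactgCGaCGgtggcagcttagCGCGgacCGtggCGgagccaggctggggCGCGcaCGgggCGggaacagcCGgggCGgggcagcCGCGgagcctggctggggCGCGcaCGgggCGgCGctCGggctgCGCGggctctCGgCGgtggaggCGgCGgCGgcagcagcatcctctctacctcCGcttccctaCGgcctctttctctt
The 6 promoters held 26, 19, 18, 30, 28 and 37 CpG dinucleotides in this order, against a median of 14 over the 20085 promoters of the table. The GC box GGGCGG, searched on both strands, was present in all of these except Dusp6, and the TATA box TATAAA was present in Adamts1 alone of the 6.

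Members were rare because the lists overlapped little. Of the control peaks, 12.7% were overlapped by the TBC1D3 list, 22.5% by the MICAL1-M1 list and 12.2% by the DIV7 list. No other list overlapped 61178 control peaks (63.6%), while 26103 (27.1%) were overlapped in 1 list and 7335 (7.62%) in 2. A control peak that was shared with some lists was more often shared with the rest. Of the 2664 control peaks in both the TBC1D3 and DIV7 lists, 60.6% (58.7 to 62.4) were also in the MICAL1-M1 list, against 22.5% of all control peaks. Of the 4420 in both MICAL1-M1 and DIV7, 36.5% (35.1 to 38.0) were in TBC1D3, and of the 5093 in both MICAL1-M1 and TBC1D3, 31.7% (30.4 to 33.0) were in DIV7. Width bears on all of these counts, since a wide peak has more bases in which to be overlapped: the median width was 1154.5 bp for members, 725 bp for peaks in 2 other lists, 488 bp in 1 and 396 bp in none. Members made up 1.42% (1.17 to 1.71) of the control peaks of chromosome 2, the lowest share, and 2.05% (1.70 to 2.46) of those of chromosome 5, the highest.

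The median member ranked above the median peak of each list, with few fragments at the summit in TBC1D3 and DIV7. Fold is the authors' ratio of fragments at the summit to the local background, each on its own list, with 1 added to both terms. The added 1 lowers the fold more where the background is low, as in TBC1D3 and DIV7, so folds of different lists are not on a common scale. The number of fragments (the pileup) was recovered from fold and p. The median member had 5 fragments at the summit in the TBC1D3 list, 9 in MICAL1-M1, 13 in mCherry DIV14 and 5 in mCherry DIV7. The background of the genome, taken as the lowest background recovered over members, was 1.22, 2.61, 3.56 and 1.28 fragments in the same order of lists. Read totals were not analysed here, and how far depth sets these values was not tested. Median folds over members were 2.47 in TBC1D3, 2.65 in MICAL1-M1, 2.74 in mCherry DIV14 and 2.42 in mCherry DIV7. The medians over all peaks of each list were 2.26, 2.21, 2.19 and 2.19. Where several peaks of a list met a member the strongest was taken, which applied to 182 members in TBC1D3, 292 in MICAL1-M1 and 196 in DIV7. By p, the median member stood at percentile 72.2 of the TBC1D3 list, 88.4 of MICAL1-M1, 91.2 of mCherry DIV14 and 70.6 of DIV7. A percentile here is the share of the list's peaks with a p no stronger than the member's, and the many tied peaks raise it. A peak with the list's median p therefore stood at 68.9 in TBC1D3, 68.4 in MICAL1-M1, 56.3 in mCherry DIV14 and 65.2 in DIV7. Against these values the median member was only slightly higher in TBC1D3 and DIV7. Some members were weaker than the typical peak: 490 (30.4%) had a fold under the list median in TBC1D3, 324 (20.1%) in MICAL1-M1, 259 (16.0%) in mCherry DIV14 and 373 (23.1%) in DIV7.

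**Figure D1:**
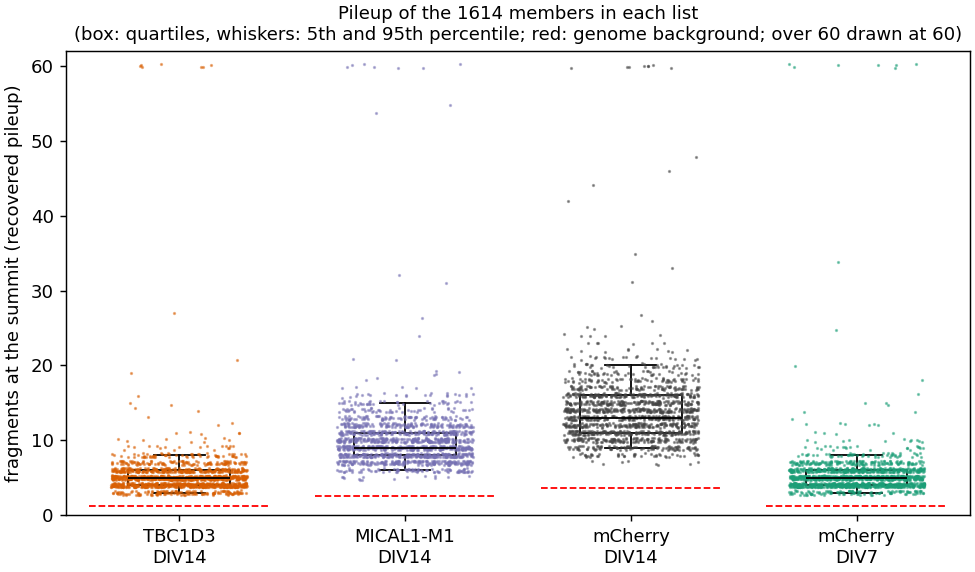
Fragments at the summit of the strongest peak over each of the 1614 members, by list, with boxes for the quartiles, whiskers for the 5th and 95th percentiles and a dashed line for the genome background; values over 60 are drawn at 60. The medians are 5 (TBC1D3 DIV14), 9 (MICAL1-M1 DIV14), 13 (mCherry DIV14) and 5 (mCherry DIV7), each above its own line.

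Few members stood above the correction for multiple testing in more than the control. A q of at most 0.05 was reached by 34 members in TBC1D3 (2.11%), 136 in MICAL1-M1 (8.43%), 513 in mCherry DIV14 (31.8%, 29.5 to 34.1) and 35 in mCherry DIV7 (2.17%). Over all peaks of these lists the shares were 0.152%, 0.440%, 4.19% and 0.186%. No list gave such a q for 1011 members, 1 list did so for 510, 2 lists for 78 and 3 lists for 8. The 7 members that reached it in all 4 lists were Cacng4, Il3ra and 5 regions outside genes. The strengths of the same member in different lists were only loosely related. Across the 1606 members without a raised local background, Spearman's rho of fold ran from 0.02 between TBC1D3 and mCherry DIV14 to 0.23 between MICAL1-M1 and mCherry DIV14, a description over peaks that share their libraries and the overlap rule.

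Members lay at gene ends in 708 of 1614 cases (43.9%, 41.4 to 46.3), counted as a control summit within 1 kb of the start or end of a protein-coding gene, against 9.89% of all control peaks and 9.31% of those that are not members. The share was 27.0% (26.0 to 28.0) for control peaks in 2 other lists, 13.5% (13.1 to 13.9) in 1 and 5.42% (5.24 to 5.60) in none. Control peaks in the MICAL1-M1 and DIV7 lists but not TBC1D3 had 28.3%, those in TBC1D3 and MICAL1-M1 but not DIV7 had 29.0%, and those in TBC1D3 and DIV7 but not MICAL1-M1 had 16.8%. Wider and stronger control peaks were also nearer to genes, so the shares were set side by side within 4 equal classes of width. Among the narrowest control peaks (287 to 339 bp) 23.3% of 43 members (11.8 to 38.6) and 4.57% of other peaks were at gene ends, and among the widest (625 to 5630 bp) the shares were 46.1% of 1319 members and 18.99% of other peaks. Within 4 such classes of the control's p, members were at gene ends in 25.2%, 31.4%, 37.6% and 48.4% of cases from weakest to strongest, and other control peaks in 5.35%, 5.18%, 7.69% and 19.4%. Members were above the other control peaks in each of these 8 comparisons, and their intervals did not overlap. The 404 members ranked highest by their weakest list were at gene ends in 53.7% of cases (48.7 to 58.7), and the 404 ranked lowest in 35.4% (30.7 to 40.3).

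**Figure D2:**
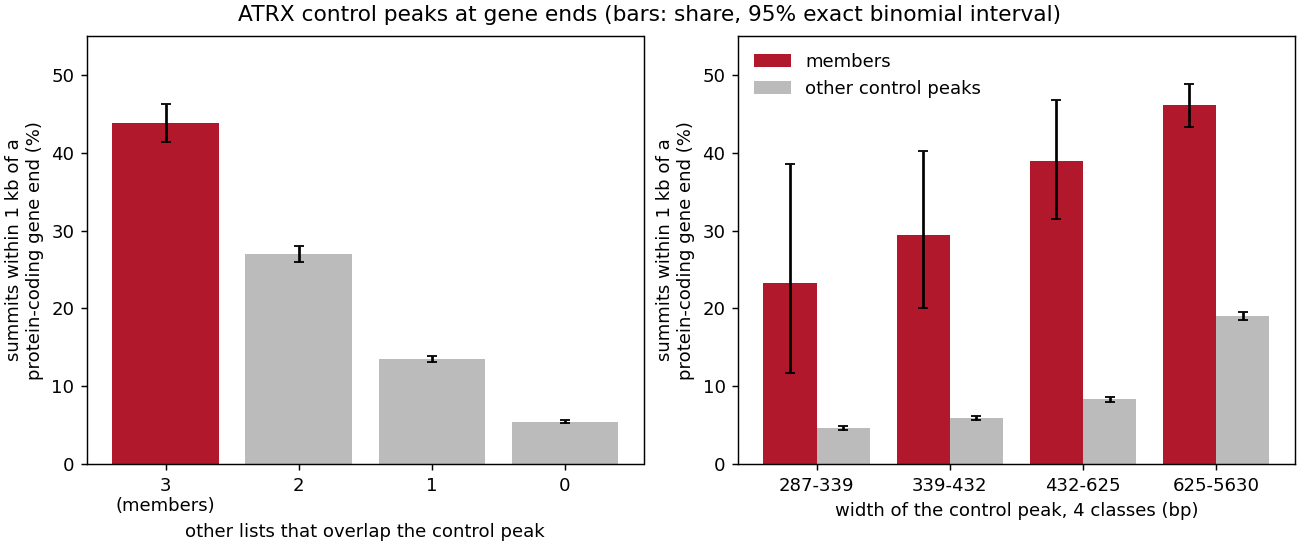
Share of control peaks with a summit within 1 kb of a protein-coding gene end, in percent, by the number of other lists that overlap them (left) and within 4 classes of control peak width in bp (right), for members (red) and other control peaks (grey), with 95% exact binomial intervals. The left panel runs from 43.9% for members to 5.42% for peaks in no other list, and in the right panel the red bar is above the grey one in every class.

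Members lay at listed starts more often than at other places near gene ends. A RefSeq start of a protein-coding gene lay within 1 kb of the control summit for 665 members (41.2%, 38.8 to 43.6), against 8.45% of all control peaks and 7.89% of those that are not members. The places were counted without overlap, so that of the members with no such start nearby 146 (9.05%) lay at an end of a gene for which the table lists no start, and 33 (2.04%) at an end away from the listed start. Of the rest, 457 members (28.3%) lay elsewhere in a protein-coding gene, against 45.7% of other control peaks, and 184 (11.4%, 9.89 to 13.1) lay outside genes, against 34.6%. Among 10269 genes longer than 5 kb with a single listed start, 446 (4.34%, 3.96 to 4.76) had a member at the start and 10 (0.0974%, 0.0467 to 0.179) at the opposite end. Other control peaks were at the start of 4693 of these genes (45.7%) and at the opposite end of 567 (5.52%).

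Summits leaned to the transcribed side of the start. Of the members' peaks within 1 kb of a start, the summit lay downstream of it in 71.2% (67.6 to 74.6) in TBC1D3, 63.2% (59.3 to 66.9) in MICAL1-M1, 64.1% (60.3 to 67.7) in mCherry DIV14 and 71.7% (68.1 to 75.1) in mCherry DIV7. The median offset was 215 bp, 162 bp, 110 bp and 207 bp downstream in the same order. The downstream lean was not particular to members: over all peaks of each list it was 63.9%, 60.5%, 61.4% and 64.4%.

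**Figure D3:**
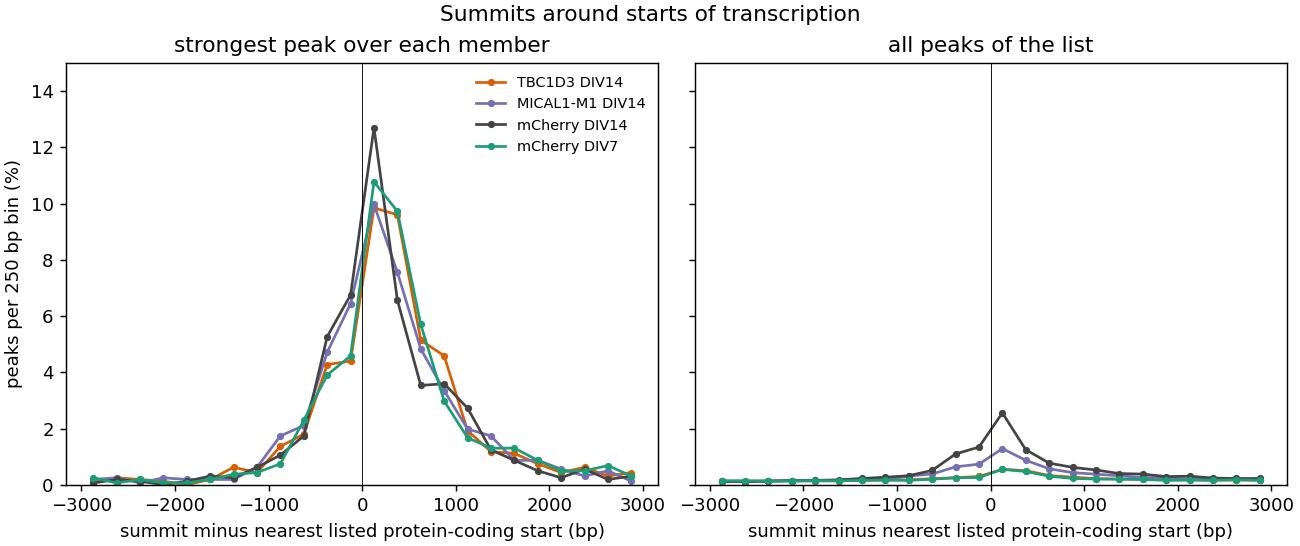
Share of peaks in 250 bp bins of the distance from the nearest listed protein-coding start to the summit, in percent, for the strongest peak over each member (left) and all peaks of each list (right), 1 line per list. In the bin from 0 to 250 bp downstream the members' lines reach 9.85% (TBC1D3 DIV14), 9.98% (MICAL1-M1 DIV14), 12.7% (mCherry DIV14) and 10.8% (mCherry DIV7), and those of all peaks stay at or under 2.56%.

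Promoters under members were richer in CpG than promoters under other control peaks. Of the 20085 promoter windows of 300 bp, 726 were overlapped by a member, 6355 by another control peak only and 13004 by none. Median CpG numbers were 27 under members, 22 under other control peaks and 6 under none, and median GC contents were 66.7%, 62.3% and 53.0%. A member lay on 402 of the 5170 promoters with 25 or more CpG (7.78%, 7.06 to 8.54), on 4.30% of those with 15 to 24, on 2.49% of those with 5 to 14, and on 9 of the 5526 with 0 to 4 (0.163%, 0.0745 to 0.309). Any control peak lay on 59.2%, 54.0%, 28.0% and 4.07% of the same classes. Of the promoters with any control peak, those with 25 or more CpG had a member in 13.1% of cases (11.9 to 14.4) and those with 15 to 24 in 7.97% (6.92 to 9.12). The share was 8.91% (7.45 to 10.5) with 5 to 14 CpG and 4% (1.85 to 7.46) with 0 to 4, so it did not rise at each step.

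**Figure D4:**
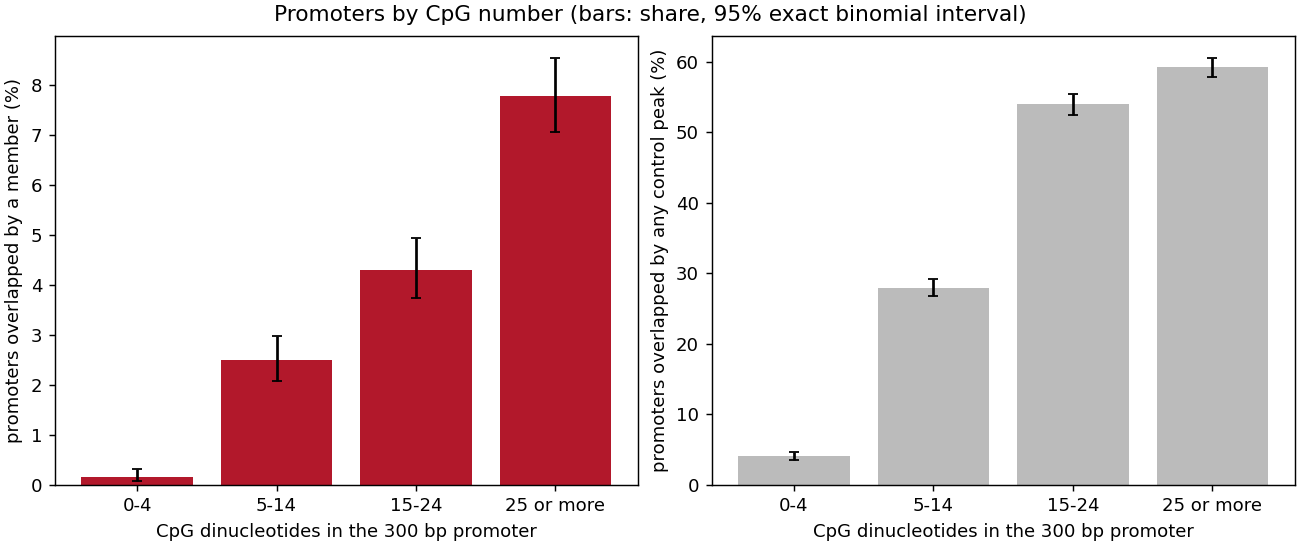
Share of 300 bp promoter windows overlapped by a member (left) and by any control peak (right), in percent, by the number of CpG dinucleotides in the window, with 95% exact binomial intervals. The member share is 0.163% with 0 to 4 CpG and 7.78% with 25 or more; the share with any control peak is 4.07% and 59.2%.

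Motif content was counted as letters on both strands of these windows. The GC box GGGCGG was in 73.8% (70.5 to 77.0) of promoters under members, in 68.0% under other control peaks, and in 47.0% of all. Among promoters with 25 or more CpG it was in 86.8% under members and 84.6% under other control peaks, with overlapping intervals. Runs of 3 or more G, 4 of them with 1 to 7 bases between, are a sequence that can fold into a G-quadruplex, a structure to which ATRX has been mapped. They were in 39.4% (35.8 to 43.1) of promoters under members, 28.4% (27.3 to 29.6) under other control peaks and 22.5% of all. Within promoters of 25 or more CpG the shares were 51.0% (46.0 to 56.0) under members, 38.0% (36.2 to 39.9) under other control peaks and 43.8% (41.6 to 45.9) under none. Within those of 15 to 24 CpG they were 26.9% (20.8 to 33.8), 23.9% and 30.0%, and members did not stand apart. Of the 6 promoters printed above, those of Ets2, Irs1 and Map2 hold such runs. A single telomere repeat unit, TTAGGG, was in 9.37% of promoters under members, 10.5% under other control peaks and 10.5% of all.

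The ETS motif was less frequent under members than under other control peaks. CCGGAAG, the core bound by ETS factors, was in 9.78% (7.72 to 12.2) of promoters under members, in 18.6% (17.7 to 19.6) under other control peaks, in 8.70% under none and in 11.9% of all. In promoters of 25 or more CpG it was in 10.2% (7.42 to 13.6) under members, 21.0% under other control peaks and 19.3% under none, and in those of 15 to 24 CpG in 11.4% (7.28 to 16.7), 21.7% and 19.5%. With 5 to 14 CpG the shares were 6.56% (2.87 to 12.5) under members, 11.2% (9.52 to 13.1) under other control peaks and 7.68% under none, and the intervals of members and other control peaks overlapped. None of the 6 printed promoters holds it. The TATA box TATAAA was in 5.65% of promoters under members, 5.98% under other control peaks and 12.7% of all, and the CCAAT box in 33.1%, 38.9% and 38.1%. The full cyclic AMP response element TGACGTCA was in 2.62% of promoters under members, 3.78% under other control peaks and 2.30% of all, and the E-box CACGTG in 10.1%, 10.4% and 7.89%. Of these 4 motifs, the CCAAT box alone has intervals that do not overlap between members and other control peaks.

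Members lay at an end of 756 of 20665 protein-coding genes (3.66%), while any control peak lay at an end of 9150 (44.3%), so 8.26% of the genes with a control peak had a member. For 575 of the 756, summits of all 4 lists fell within 1 kb of the same end. At 55 member peaks the summit was near the ends of more than 1 gene, so genes are not separate observations. The strongest of these members were ordered by common rank, the lowest of a peak's 4 percentiles by p, each within its own list.

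The highest common rank at a gene end was that of Dtwd2, a tRNA modification enzyme (chr18:49755217-49756044), with folds of 3.61 in TBC1D3, 4.71 in MICAL1-M1, 4.34 in mCherry DIV14 and 3.50 in mCherry DIV7. Egr1, a transcription factor induced by neuronal activity (chr18:34859058-34862628), had folds of 3.29, 4.87, 8.61 and 3.50 in this order, from 8, 32, 46 and 7 fragments at the summit. Its control fold was the highest of all members. Nrg2, a neuregulin that signals through ErbB receptors (chr18:36196501-36197800), had folds of 3.16, 3.88, 3.72 and 3.94. At Tril, whose promoter is printed above, the folds were 3.16, 3.05, 3.33 and 3.94, and the 4 summits lay between 273 bp upstream and 100 bp downstream of the start.

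Dusp6 had the widest member of all, 5630 bp (chr10:99261007-99266636), which covers the whole printed promoter and most of the gene (99263231 to 99267489). Its folds were 3.99 in TBC1D3, 3.79 in MICAL1-M1, 2.95 in mCherry DIV14 and 3.07 in mCherry DIV7. The summits were spread over it, at 903 bp downstream of the start, 1640 bp upstream, 298 bp upstream and 381 bp downstream in this order of lists. Adamts1 (chr16:85800588-85803585) had folds of 4.05, 3.32, 2.82 and 3.50, Ets2 (chr16:95701557-95703107) 3.77, 2.89, 3.51 and 4.38, and Irs1 (chr1:82289889-82292890) 3.16, 2.62, 2.85 and 3.83. At Map2 (chr1:66174957-66176874) the folds were 3.42, 2.69, 2.97 and 3.07 from 7, 13, 16 and 6 fragments. The summits were spread over the start region in each of these 4 genes. The Map2 summits ranged from 429 bp upstream to 957 bp downstream of the start, and those of Irs1 from 98 bp upstream to 1556 bp downstream.

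Further down the order came genes of signalling, adhesion and transcription. Gng4, a G protein gamma subunit, had folds of 3.16 in TBC1D3, 3.60 in MICAL1-M1, 3.07 in mCherry DIV14 and 3.50 in mCherry DIV7. The adhesion genes Ncam1 (2.93, 3.76, 4.41 and 3.01), Lrrn2 (2.83, 3.67, 2.87 and 4.22) and Pcdh10, a protocadherin outside the clusters (2.83, 3.42, 4.82 and 3.50), followed, with folds in the same order of lists. The 4 summits lay close together at Pcdh10, between 292 and 564 bp upstream of the start, and at Lrrn2, between 845 and 1084 bp downstream of it. Of regulators of transcription, Cited2, a partner of CBP and p300, had 2.83, 4.41, 4.35 and 3.36, and Maml3, a Notch coactivator, 3.58, 3.29, 2.79 and 3.07. The shared start region of Mesd, a chaperone of LRP receptors, and Tlnrd1 had 3.16, 2.82, 3.51 and 3.90. The leading 20 also held Mllt11, Klhl29 and Msc, with folds from 2.71 to 3.82 over the 4 lists.

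Members with the highest control fold after Egr1 mostly had lower folds in each other list, as a choice on the control's value allows. Zcchc9, a zinc knuckle protein gene, had folds of 2.70 in TBC1D3, 2.49 in MICAL1-M1, 5.83 in mCherry DIV14 and 2.19 in mCherry DIV7. Morc2a and Tasor, both genes of the HUSH silencing machinery, had 2.23, 2.10, 5.70 and 2.63, and 2.26, 4.28, 5.26 and 3.18. The Wnt receptor gene Fzd1 had 2.22, 3.60, 5.19 and 1.75, the adhesion gene Nectin3 3.02, 2.43, 5.04 and 2.78, and the adenylyl cyclase gene Adcy8 2.77, 3.70, 5.02 and 2.19. The DIV7 value of Fzd1 rests on 3 fragments at the summit, and that of Zcchc9 on 4. By p, Tasor, Adcy8 and Fzd1 stood at percentiles 99.96, 99.56 and 99.49 of the MICAL1-M1 list, and Fzd1 at 22.8 of the DIV7 list.

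Cacng4 was the exception, high in every list. It encodes a TARP, an auxiliary subunit of AMPA-type glutamate receptors, and its member lies in the gene (chr11:107782574-107787482, within 107732357 to 107794706) and not at an end. The folds were 6.78 in TBC1D3, 5.30 in MICAL1-M1, 5.26 in mCherry DIV14 and 4.54 in mCherry DIV7, from 15, 21, 23 and 15 fragments. The peaks there were wide in each list (3673, 2718, 4909 and 2632 bp). Il3ra, the interleukin-3 receptor alpha chain gene, and Dner, a neuronal receptor gene of the Notch family, were singled out after their values were seen. The Il3ra member (chr14:14345884-14350477) had folds of 6.77, 3.32, 4.82 and 5.69 and widths of 3675, 3712, 4594 and 4995 bp. The Dner member (chr1:84693414-84696829) had folds of 4.50, 4.82, 3.93 and 3.50, with summits 385, 448, 1279 and 578 bp downstream of the start, so only its control summit fell outside the 1 kb window. The 4 widest members included those of Dusp6, Cacng4 and Itm2c, a transmembrane protein gene (5124 bp).

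Gene groups were described by how many of their genes had a member at an end, beside 3.66% of all protein-coding genes. Immediate early and activity-response genes had 7 of 39 (17.9%, 7.54 to 33.5), and 30 of the 39 had some control peak. The 7 were Egr1, Dusp6, Junb, Gadd45g, Dusp5, Rheb and Dusp4, of which 3 encode dual-specificity phosphatases. At Gadd45g, a stress and activity response gene, the folds were 3.69 in TBC1D3, 3.28 in MICAL1-M1, 1.896 in mCherry DIV14 and 2.82 in mCherry DIV7. At Dusp5, a phosphatase of nuclear ERK, they were 1.98, 3.60, 4.28 and 3.07. The Junb member lies at the far end of the gene, with summits 2052 to 2525 bp downstream of the start.

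Neuronal groups were mixed. Voltage-gated channel genes had a member at 7 of 40 genes (17.5%, 7.34 to 32.8), among them the calcium channel subunits Cacnb2, Cacna2d3, Cacna1g and Cacnb4 and the potassium channels Kcnq3, Kcnb2 and Kcnc2. At Cacnb2 the folds were 3.17 in TBC1D3, 2.41 in MICAL1-M1, 3.53 in mCherry DIV14 and 2.64 in mCherry DIV7. Axon guidance and growth genes had 7 of 51 (13.7%, 5.70 to 26.3), with Ncam1, its paralogue Ncam2, the Eph receptors Ephb1 and Epha5, the netrin receptor Dcc, Nrp1 and Sema4d. Postsynaptic glutamate genes had 7 of 56 (12.5%, 5.18 to 24.1), among them Dlgap1 and Shank2 of the scaffold, the receptors Grm7, Gria1 and Grin2a, and the kinase Camk2a. Presynaptic release genes had 3 of 54 (5.56%, 1.16 to 15.4), Rimbp2, Unc13a and Stxbp5, and inhibitory synapse genes 2 of 29 (6.90%, 0.846 to 22.8), Insyn1 and Gabrg3. By p, Stxbp5 stood at percentile 0.126 of the TBC1D3 list, with 3 fragments at the summit. The intervals of presynaptic and inhibitory genes include the share over all genes, and those of immediate early, channel, guidance and postsynaptic genes do not. Among genes with any control peak, where 8.26% of all had a member, the share was 23.3% (9.93 to 42.3) for immediate early genes and 25.9% (11.1 to 46.3) for channel genes. It was 18.9% (7.96 to 35.2) for guidance genes and 16.7% (6.97 to 31.4) for postsynaptic genes, whose intervals include 8.26%. Summits of all 4 lists fell within 1 kb of the same end for 5 immediate early, 6 channel, 3 guidance and 5 postsynaptic genes. Each of these counts is out of 7, beside 575 of 756 over all genes. With summits within 250 bp in each list the counts were 1, 2, 2 and 1 in this order, beside 94 over all genes. The groups were chosen with earlier results of these data known and were not tested.

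Further groups, from ribosomal protein genes to chromatin regulators, had shares of genes with a member whose intervals include the 3.66% of all genes. Ribosomal protein genes had a control peak at 55 of 81 genes and a member at 3 (3.70%, 0.770 to 10.4), namely Rpl12, Rps6 and Rpl7. Oxidative phosphorylation genes had a control peak at 63 of 91 genes and a member at 1, Ndufv2 (1.10%, 0.0278 to 5.97). By p, Rpl7 stood at percentile 0.28 of the mCherry DIV14 list and Ndufv2 at 2.79 of the TBC1D3 list. Translation initiation factors had members at 3 of 53 genes (5.66%, 1.18 to 15.7), clustered histones at 4 of 65 from 2 peaks (6.15%, 1.70 to 15.01), and Zfp zinc finger genes at 10 of 386 from 8 peaks (2.59%, 1.25 to 4.71). Genes of chromatin regulators and ATRX partners had 2 of 59 (3.39%, 0.413 to 11.7), the remodeller gene Smarca4 and the methyl-CpG binding protein gene Mbd1. Among genes with a control peak, members were at 5.45% (1.14 to 15.1) of ribosomal protein genes, 1.59% (0.0402 to 8.53) of oxidative phosphorylation genes, 8.57% (1.80 to 23.1) of initiation factors and 8.89% (2.48 to 21.2) of histones. The share was 5.41% (0.661 to 18.2) for chromatin regulators and ATRX partners. Each of these intervals includes the 8.26% over all such genes. For Zfp genes the share was 4.39% (2.12 to 7.92), and its interval lies under 8.26%.

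Receptor, Hox, imprinted and developmental genes were often without any control peak. Olfactory and vomeronasal receptor genes had a member at 1 of 1452, Vmn2r29 (0.0689%, 0.00174 to 0.383), Hox genes at 0 of 39, imprinted genes at 0 of 41, and other developmental transcription factors at 1 of 80, Lhx2 (1.25%, 0.0316 to 6.77). Of these 4 groups only the receptor genes have an interval that lies under 3.66%, and control peaks were scarce there too, at 14 of the 1452 (0.964%), and 1 of those 14 had a member (7.14%, 0.181 to 33.9). A control peak lay at 3 of the 39 Hox genes, 12 of the 41 imprinted genes and 19 of the 80 developmental factors. Clustered protocadherins had 1 of 57, Pcdhgc3, with folds of 4.51 in TBC1D3, 3.32 in MICAL1-M1, 2.69 in mCherry DIV14 and 2.77 in mCherry DIV7. Of cell type markers, members lay at 4 of 15 neuronal genes (26.7%, 7.79 to 55.1), beside 3.66% of all genes. These were Map2, the neurofilament genes Nefm and Nefh, and Camk2a, which by p stood at percentile 16.1 of the mCherry DIV14 list. Members lay at 0 of 12 astrocyte genes (0 to 26.5), 1 of 11 oligodendrocyte genes (Mbp, 9.09%, 0.230 to 41.3), 0 of 12 microglial genes (0 to 26.5) and 0 of 12 fibroblast and endothelial genes (0 to 26.5). The neuronal interval lies above 3.66% but overlaps that of each other cell type. The control list as a whole had a peak at 13 of the 15 neuronal markers, 6 of the 12 astrocyte, 6 of the 11 oligodendrocyte, 0 of the 12 microglial and 4 of the 12 fibroblast and endothelial ones. A ChIP peak is no measure of expression, so these counts describe the label and do not test it.

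Within genes, away from their ends, 457 members lay in protein-coding genes with a median length of 162586 bp, against 238592 bp for other control peaks. Genes of 300 kb or more held 33.5% (29.2 to 38.0) of these members and 42.4% (42.0 to 42.9) of the other control peaks in gene bodies. The most members in 1 gene body were 4, in Celf2, a splicing regulator gene with 177 other control peaks, and in Efnb2, which encodes the Eph receptor ligand ephrin-B2 and had 8 others. Both were chosen after their values were seen. Another member's summit lay within 10 kb for 144 members (8.92%) and within 100 kb for 368 (22.8%), and the median distance to the nearest was 358252 bp.

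No annotated gene lay within 10 kb of the summit for 107 (6.63%, 5.46 to 7.96). The strongest of these with an ordinary local background (chr9:51978760-51979944) lay 15417 bp from the nearest gene and had folds of 5.86 in TBC1D3, 3.21 in MICAL1-M1, 3.72 in mCherry DIV14 and 7.01 in mCherry DIV7, from 12, 14, 16 and 15 fragments. The others named by rank were modest. The member at chr15:85669760-85671456 had folds of 3.12, 2.65, 3.21 and 2.63, and that at chr4:55650944-55651598 had 3.15, 2.65, 2.25 and 3.07.

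In 8 members the local background was more than 10 times the genome background in at least 1 list. Those on chromosomes 2 and 9 held by far the most fragments of all members. On chromosome 2 (chr2:98666399-98667441) the summit held 41090 fragments in TBC1D3, 37597 in MICAL1-M1, 34918 in mCherry DIV14 and 33618 in mCherry DIV7. The local background there was 9268, 20651, 28844 and 8880 fragments, so the folds were 4.43, 1.82, 1.21 and 3.79. Relative to the genome background the local one was alike in the 4 lists, 7616, 7908, 8093 and 6918 times as high. The study has 1 input sample, and whether the background of every list was taken from it was not tested. Another 4 lay within 10 kb of each other on chromosome 9, of which the first (chr9:3017959-3018641) had 1776, 1132, 1071 and 1509 fragments and folds of 7.36, 2.17, 1.38 and 4.58. The remaining 3 lay in Rn18s-rs5, an 18S ribosomal RNA related sequence (chr17:39846761-39847221, folds of 6.63, 1.68, 1.23 and 2.47), near the end of chromosome 19 (chr19:61266860-61267218, folds of 4.10, 1.93, 2.22 and 2.47), and in the predicted gene Gm40363 (chr6:47685144-47686533, folds of 2.09, 1.57, 1.64 and 2.88).

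In all 8 the fold in TBC1D3 and the fold in DIV7, the lists with the lowest genome background, were above that in mCherry DIV14. These regions supply 5 of the 7 members with a q of at most 0.05 in all lists, and 4 of those 5 have a control fold of 1.38 or less. Reads of repeat copies cannot be told apart in peak lists, and their part in these values was not tested. The 8 are 0.496% of the members.

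**Figure D5:**
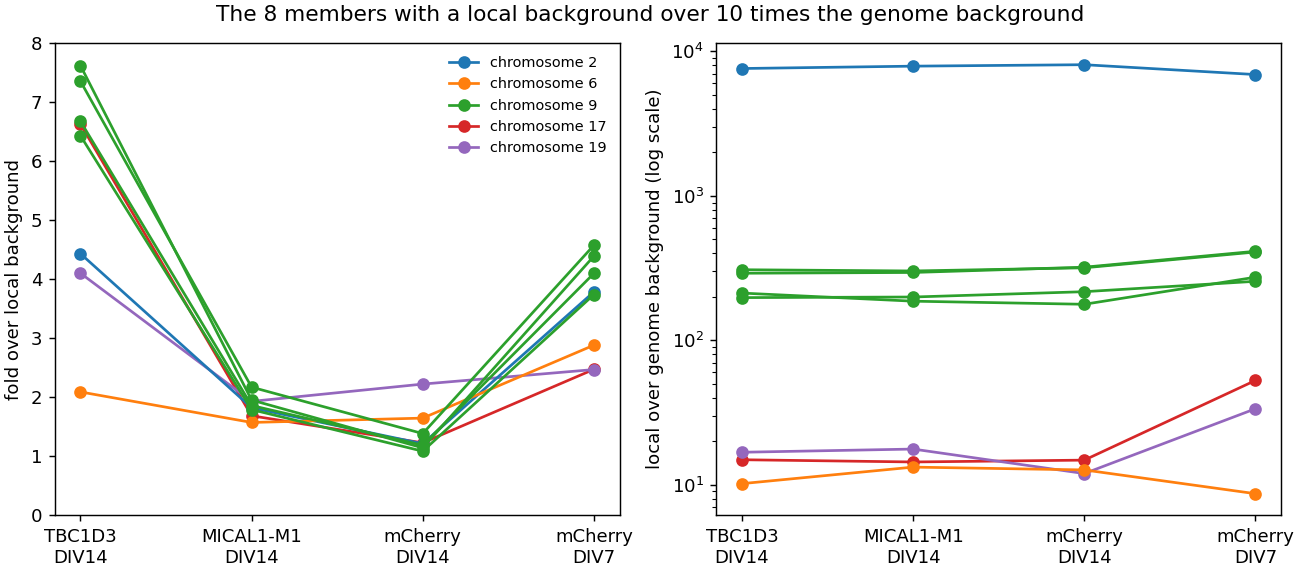
The 8 members with a raised local background, 1 line each coloured by chromosome, in the 4 lists: fold over the local background (left) and local background over the genome background on a log scale (right). The folds of the chromosome 9 members lie between 6.43 and 7.62 in TBC1D3 DIV14 and between 1.08 and 1.38 in mCherry DIV14, while their local background is between 178 and 414 times the genome's in every list.

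An overlap did not mean a shared summit. From the control summit to the nearest TBC1D3 summit the median distance was 317 bp, to MICAL1-M1 298.5 bp and to DIV7 325.5 bp. A summit was within 250 bp for 40.9% (38.5 to 43.3), 43.7% (41.2 to 46.1) and 40.8% (38.4 to 43.3) of members. For control peaks that are not members but are overlapped by the list in question, these shares were 53.5%, 48.1% and 54.6%, at narrower widths. All 3 other summits were within 250 bp for 176 members (10.9%, 9.43 to 12.5), and none was for 387 (24.0%). The aligned share was 23.5% among the narrowest of 4 equal classes of members and 3.47% among the widest. Aligned members lay at gene ends in 46.6% of cases (39.1 to 54.2), against 43.5% (41.0 to 46.1) of the other members, with overlapping intervals.

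At the border of the rule, 144 members owed their place to an overlap of at most 50 bp in 1 list, and 162 control peaks in 2 other lists missed the last list by at most 50 bp. The median control fold was 2.38 just inside and 2.40 just outside, the median width 733.5 and 652.5 bp, and the gene-end share 34.0% and 27.2%. The least overlap of a member ranged from 1 to 3675 bp, with a median of 249 bp.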

How the data were processed

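The data are ATRX ChIP-seq peak lists of 4 libraries, 1 per group. Enzymatically cut chromatin was immunoprecipitated and sequenced from both ends with input DNA as background, per the labels' protocols. The input sample was not analysed here. Per the submitters' processing notes, the tools were ChIPseeker 1.26.2, MACS 1.4.2, SAMtools 1.9 and Bowtie 1.3.0, in roles that the notes do not state. That version of MACS is not known to write narrowPeak files with q-values, so the caller is uncertain, and the build is not given in the sources used here. The deposited score of a peak is 10 times the −log10 of its p-value, cut to a whole number. The deposited fold was read as the ratio of pileup to local background at the summit, with 1 added to both terms. The deposited −log10 values belong to a p-value, at most 0.05 in every list, and a q-value. The authors' summit offset in bp gave summit positions. Each list stands for its own library, without pooling.

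Overlaps of at least 1 bp were counted on chromosomes 1 to 19 (Python 3.11.15, pandas 2.3.3, scipy 1.17.1) and checked against bedtools 2.31.1 on simulated data. The members and gene lists were chosen with earlier results of these data known. Fold and p of each member gave a whole pileup over a Poisson background, within a relative 0.001 of the deposited p, in 100% of cases. Read totals were not analysed here. Gene positions, starts and promoters came from RefSeq tables of GRCm38.p6, whose scaffold names the lists share. The promoter table covered 16457 of 20665 protein-coding genes. No p-value was computed, since no group has replicates. Named are the 20 members of highest common rank at gene ends, the 8 of highest common rank far from genes, the 8 of highest control fold, the 4 widest, and up to 6 genes per list; a few of these are not reported here. The printed promoters follow that order, take those that the member covers, and leave out chromosome 18. Alternatives changed the overlap, threshold, list length, anchor, window and gene set.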

Additional observations from a re-analysis of the deposited data

Results flagged for a closer look

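Outside the autosomes, 6 of 404 control peaks on chromosome X were overlapped in all 3 other lists (1.49%, 95% exact binomial interval 0.547 to 3.20), near the 1.68% of chromosomes 1 to 19. On unplaced scaffolds 10 of 17 control peaks were overlapped in all 3 (58.8%, 32.9 to 81.6), with control folds from 1.08 to 3.85. The 10 lay on chr4_GL456216_random, chr4_JH584295_random and chrUn_JH584304 alone, so they are not separate observations as the interval takes them to be. Those on chrUn_JH584304 had control folds from 1.08 to 1.47. The counts on X and on scaffolds were singled out because these peaks lie outside the chromosomes on which members were counted.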

How the results depend on the processing

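The number of members depended on the rule. It was 98 when each other list had to cover at least 50% of the control peak with 1 peak, 176 with summits within 250 bp, 608 at a p of at most 0.01 in every list, 513 at a q of at most 0.05 in the control, and 663 with lists of equal length; 2308 merged regions held a peak of each list, and adding X and Y gave 1623. Leaving out 1 list, an alternative chosen after seeing the data, gave 4420 members without TBC1D3, 2664 without MICAL1-M1 and 5093 without DIV7, with gene-end shares of 34.0%, 33.2% and 33.7%. The gene-end share was 46.6% with aligned summits, 48.4% with equal lists, 30.8% with a 500 bp window (6.47% for other control peaks), 59.5% with 3 kb (15.3% for others), 51.1% with all annotated genes, and 41.2% at starts alone, the last chosen after seeing the data. From the narrowest to the widest of 4 classes it was 23.3%, 29.4%, 38.9% and 46.1%, and from the weakest to the strongest of 4 classes of p 25.2%, 31.4%, 37.6% and 48.4%. The median fold was 2.41 with aligned summits and 2.79 with equal lists, and the median width 675.5 and 1243 bp. Genes with a member numbered 94 with aligned summits, 340 with equal lists, 1032 with 3 kb, and 575 with all 4 summits at the same end. With 3 kb, the counts of 15 gene lists stayed within 1.5 times and 7 moved; with aligned summits, 6 stayed and 16 moved. Fewer members are left by construction under the stricter rules; other causes were not tested. No paired analysis was possible because each group is 1 library. Few fragments limit the lists: the median member in TBC1D3 and in DIV7 rests on 5 fragments.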
